A study of Mus musculus with 8 samples.

Results

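The Nuclear Factor One (NFI) family holds 4 genes in the mouse, *Nfix*, *Nfia*, *Nfib* and *Nfic*, and each was measured by 1 transcript cluster, so the 4 clusters described here are all those of the family among 65956 on the array. A transcript cluster groups the probes laid out for 1 transcribed stretch of the genome, and a cluster belonged to the family where the platform annotation gave it 1 gene symbol equal to a member. The samples were whole spinal cords of embryos at E14.5 on the C57Bl/6J strain, from matings of heterozygous mice, with 4 Nfix-/- samples homozygous for an altered *Nfix* allele and 4 Nfix+/+ samples from wild-type littermates. Neither group was given an agent, and the study's text states fewer mice per genotype than the samples deposited, a difference that the sources used here do not explain. Each sample was labelled as a biological replicate and hybridised to 1 array, and the part of *Nfix* that the allele removes, the number of cords in a sample and the litter of each embryo are not given in the sources used here. Each array gave 1 value per cluster, a signal on the log2 scale that the authors made by SST-RMA, and a difference of 1 on this scale is a doubling. All differences are Nfix-/- minus Nfix+/+, and with this direction, taken from the sample labels, the split of higher and lower calls runs opposite to that stated in the study.

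NFI proteins are transcription factors that bind DNA as dimers, through a domain near the amino end that is much alike in all members, at a palindrome whose arms read TTGGC and GCCAA. In the spinal cord they are known for the switch of ventricular zone progenitors from making neurons to making glia, with NFIA and NFIB needed for the onset of astrocyte genes and NFIX acting later in the same lineage. They can activate glial genes and repress genes that keep progenitors dividing, and members can act on each other's genes, of which the dependence of *Nfix* on NFIB is 1 reported case.

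*Nfix* has several annotated start sites. For these the RefSeq table of GRCm38.p6 holds 4 windows of 300 bases, each from 250 before to 50 after a start. Which of these starts the single value of the *Nfix* cluster covers was not analysed here. The set of windows used here also held 1 for *Nfia* and 1 for *Nfic*, and none for *Nfib*. An arm of the NFI palindrome, TTGGC or GCCAA on the strand shown (which covers both strands), lay in 3 of the 4 *Nfix* windows and in 0 of those of *Nfia* and *Nfic*, while 46.7% of all 32851 windows held at least 1. The whole palindrome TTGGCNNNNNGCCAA lay in none of the 6, against 0.0365% of all windows. A match is a run of letters and not a site of binding. The window with the most arms and the first window, which held none, are shown because the arms bear on the reported action of NFI proteins on *Nfix*, and the arms are in capitals. In the former both arms lie next to the start, which 14.4% of all windows match in having 2 or more anywhere, and they stand in the outward order with 3 bases between them. Both are read 5′ to 3′ on the minus strand of GRCm38.p6, at chr8:84772826-84773125 and chr8:84780033-84780332.
Nfix start with 2 arms: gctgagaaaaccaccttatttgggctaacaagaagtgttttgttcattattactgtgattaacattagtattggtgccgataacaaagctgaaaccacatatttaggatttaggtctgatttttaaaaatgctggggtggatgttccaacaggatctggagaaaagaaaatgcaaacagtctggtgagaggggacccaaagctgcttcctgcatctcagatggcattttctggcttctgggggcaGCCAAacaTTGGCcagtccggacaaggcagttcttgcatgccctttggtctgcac
Nfix start without arms: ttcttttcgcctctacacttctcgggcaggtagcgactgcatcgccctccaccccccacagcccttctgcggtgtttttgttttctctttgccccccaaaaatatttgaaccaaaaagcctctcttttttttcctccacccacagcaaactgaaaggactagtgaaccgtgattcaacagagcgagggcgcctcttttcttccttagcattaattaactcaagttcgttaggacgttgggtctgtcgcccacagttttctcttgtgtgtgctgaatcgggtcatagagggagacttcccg

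*Nfix*, the gene altered in these mice, was lower in all 4 Nfix-/- arrays than in any Nfix+/+ array, and it was the only member that passed the test. The cluster of the gene, which spans chromosome 8 from 84704712 to 84801238 in GRCm38.p6 (the assembly of mm10), had log2 signals of 8.90, 8.88, 8.83 and 8.81 in Nfix-/- replicates 1 to 4. In Nfix+/+ replicates 1 to 4 they were 9.36, 9.18, 9.25 and 9.19. The Nfix-/- values spanned 0.0897 and the Nfix+/+ values 0.184, both less than the difference between the groups' means of 8.86 ± 0.0427 (SD, n = 4) and 9.25 ± 0.0839 (SD, n = 4). The log2 difference was -0.39 (95% interval -0.51 to -0.27, adjusted p = 0.00240 from limma over all clusters), which leaves 0.763 of the wild-type signal (0.700 to 0.832). This is a 1.31-fold change, under the 1.5-fold cut-off of the study's methods. With 4 arrays against 4, the two-sided exact permutation test gave p = 0.0286, the smallest it allows. Where the probes of the cluster lie against the altered part of the gene was not analysed here, so the signal that remains in Nfix-/- is no measure of remaining NFIX protein. In whole tissue, fewer cells that express a gene and less RNA per cell cannot be told apart.

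The paralogs *Nfia*, *Nfib* and *Nfic* did not pass the test, and the intervals of their differences bound how far each could have moved on the deposited scale. *Nfia*, whose protein starts gliogenesis in the cord, lies on chromosome 4 from 97578066 to 98118876. Its log2 signals were 8.76, 8.88, 8.78 and 8.85 in Nfix-/- replicates 1 to 4 and 8.82, 8.83, 8.80 and 8.82 in Nfix+/+ replicates 1 to 4. The 4 wild-type values lay within 0.0295 of each other and inside the range of the Nfix-/- values, which spanned 0.119. The difference was -0.00154 (95% interval -0.10 to 0.10, adjusted p = 0.986 from limma), or a ratio between 0.931 and 1.07. *Nfib*, which like *Nfia* is needed for astrocyte genes in the cord, lies on the same chromosome from 82290173 to 82506751. Its signals were 8.76, 8.92, 8.81 and 8.93 in Nfix-/- and 8.80, 9.04, 8.79 and 8.87 in Nfix+/+, again in the order of replicates 1 to 4. It was highest in Nfix+/+ replicate 2, the groups overlapped, and the difference was -0.02 (95% interval -0.18 to 0.14, adjusted p = 0.857 from limma), or a ratio between 0.882 and 1.10.

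*Nfic*, the member known best for tooth root development, lies on chromosome 10 from 81396191 to 81431919. Its signals were 8.23, 8.24, 8.23 and 8.17 in Nfix-/- replicates 1 to 4 and 8.22, 8.08, 8.18 and 8.20 in Nfix+/+ replicates 1 to 4. The groups overlapped, with the lowest value in Nfix+/+ replicate 2. The difference was 0.05 (95% interval -0.06 to 0.16, adjusted p = 0.506 from limma), or a ratio between 0.959 and 1.11. The exact permutation test gave two-sided p of 0.971 for *Nfia*, 0.886 for *Nfib* and 0.229 for *Nfic*. So 1 of 4 members was called at an adjusted p under 0.05, when 22.0% of all clusters were, 11.5% as higher and 10.5% as lower. None of the 4 also passed the 1.5-fold cut-off, as 2.05% of all clusters did (1.26% as lower). The groups did not overlap in 1 of the 4 members and in 28.1% of all clusters. Both shares are near the background, so the counts say nothing particular of the family.

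**Figure D1:**
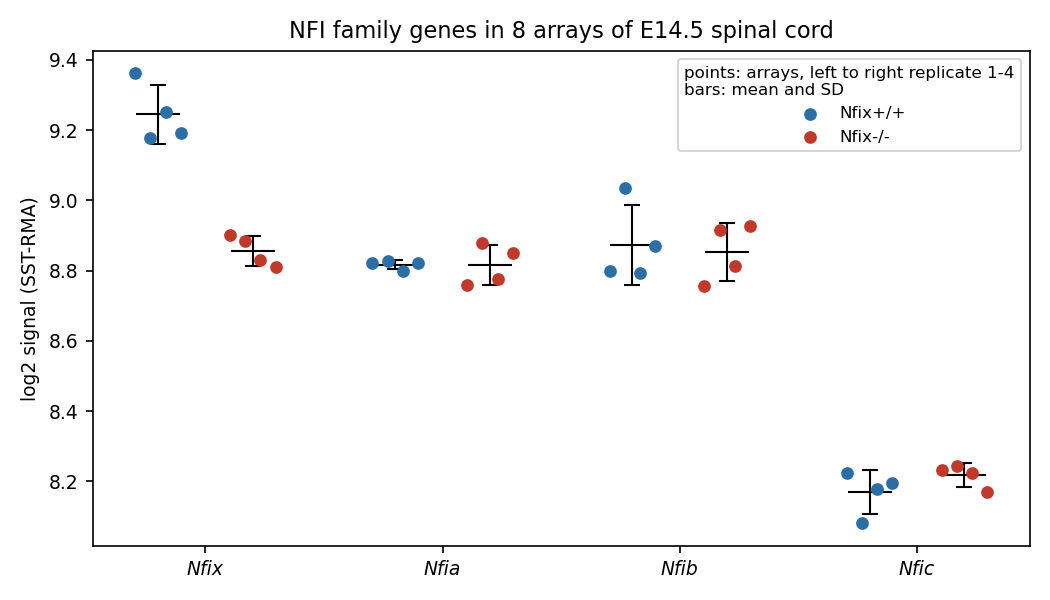
Log2 signal (vertical axis, SST-RMA) of the 4 NFI genes in each of 8 arrays, with Nfix+/+ in blue and Nfix-/- in red, replicates 1 to 4 from left to right, and the mean and SD as bars. The *Nfix* points of the genotypes are apart, from 8.81 to 8.90 against 9.18 to 9.36, while those of the other 3 genes overlap. The axis does not start at 0, and the heights of different genes are not comparable because their probes differ.

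Whether the fall of *Nfix* differed from the change of each paralog was tested within arrays, by subtracting the paralog's log2 signal from that of *Nfix* on the same array, where a shift of a whole array cancels. *Nfix* minus *Nfia* was 0.14, 0.01, 0.05 and -0.04 in Nfix-/- replicates 1 to 4 and 0.54, 0.35, 0.45 and 0.37 in Nfix+/+ replicates 1 to 4. The groups did not overlap, and their means differed by -0.39 (two-sided exact permutation test, p = 0.0286, adjusted over 3 paralogs p = 0.0429). *Nfix* minus *Nfic* was 0.67, 0.64, 0.60 and 0.64 against 1.14, 1.10, 1.07 and 0.99. The groups did not overlap here either, the SD within each was 0.0255 and 0.0612, and the means differed by -0.44 (exact permutation test, p = 0.0286, adjusted p = 0.0429). *Nfix* minus *Nfib* was 0.14, -0.03, 0.02 and -0.12 against 0.56, 0.14, 0.46 and 0.32. The groups met at 0.14, in Nfix-/- replicate 1 and Nfix+/+ replicate 2, and the difference of -0.37 missed the threshold (exact permutation test, p = 0.0571, adjusted p = 0.0571), which does not show that *Nfix* and *Nfib* moved alike. Without Nfix+/+ replicate 2 it was -0.44 and the groups no longer met, but 3 arrays against 4 cannot give a p under 0.0571.

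**Figure D2:**
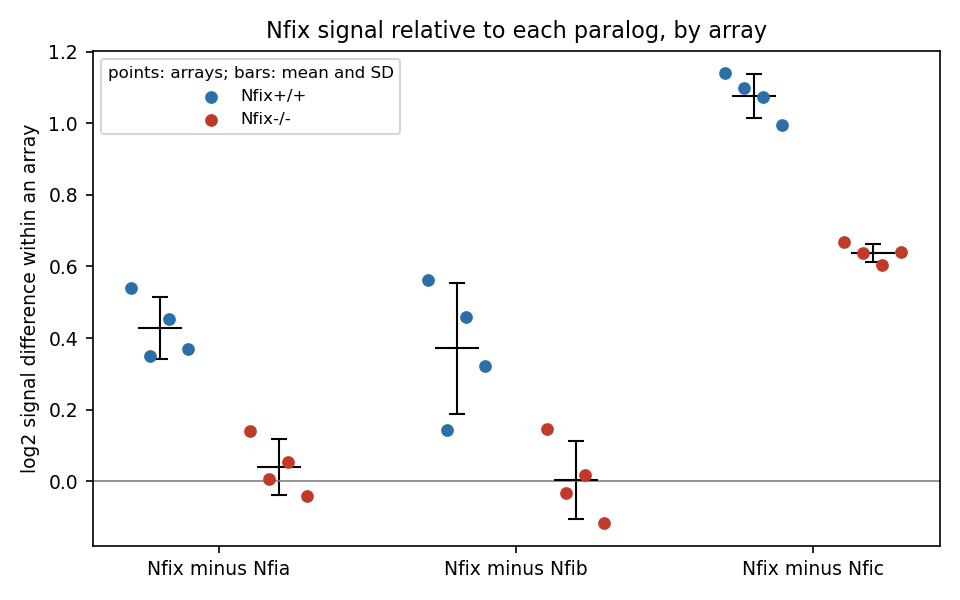
Log2 signal of *Nfix* minus that of each paralog on the same array (vertical axis), for Nfix+/+ in blue and Nfix-/- in red, with the mean and SD as bars. Against *Nfia* the Nfix-/- arrays lie between -0.04 and 0.14 and the Nfix+/+ arrays between 0.35 and 0.54, and only against *Nfib* do the groups meet.

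*Nfib* was highest and *Nfic* lowest in Nfix+/+ replicate 2 among the wild-type arrays, and the same held for Nfix-/- replicate 4 among the Nfix-/- arrays. In both arrays the probe sets named as negative controls, whose sequences were not analysed here, had the highest median of their genotype. The medians were 4.88 against 4.33 to 4.49 and 4.60 against 4.34 to 4.40. Within each genotype the order of *Nfib* over the arrays was the same as that of the control medians. Among the arrays other than these 2 the order of *Nfic* did not follow the control medians. The part of this control signal in the 2 genes was not tested. Without Nfix+/+ replicate 2 the difference of *Nfib* was 0.03 (adjusted p = 0.722 from limma), that of *Nfic* 0.02 (adjusted p = 0.792) and that of *Nfix* -0.41 (adjusted p = 0.00336), so the fall of *Nfix* was as large without that array.

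The values of the paralogs depended on how the arrays were set to a common scale, while the call of *Nfix* did not. After quantile normalization of the deposited values the differences were -0.50 for *Nfix* (adjusted p = 0.00185 from limma), -0.10 for *Nfia* (adjusted p = 0.164), -0.12 for *Nfib* (adjusted p = 0.210) and -0.03 for *Nfic* (adjusted p = 0.797). After cyclic loess, which removes differences between arrays that follow brightness, they were -0.49, -0.10, -0.12 and -0.04, with adjusted p of 0.000950, 0.103, 0.222 and 0.585 from limma. The shift came with that of bright clusters in general. The 11778 clusters brighter than 95% of the negative-control probe sets on 4 or more arrays, here called above background, had a median difference of 0.09 on the deposited scale, of 0.0003 after quantile normalization and of -0.01 after cyclic loess. On the deposited scale all 4 members lay below that median. The unadjusted interval of *Nfia* after cyclic loess, -0.19 to -0.01, did not reach 0, but its adjusted p did not pass and its interval on the deposited scale was centred near 0. No direction is therefore given for a paralog.

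**Figure D3:**
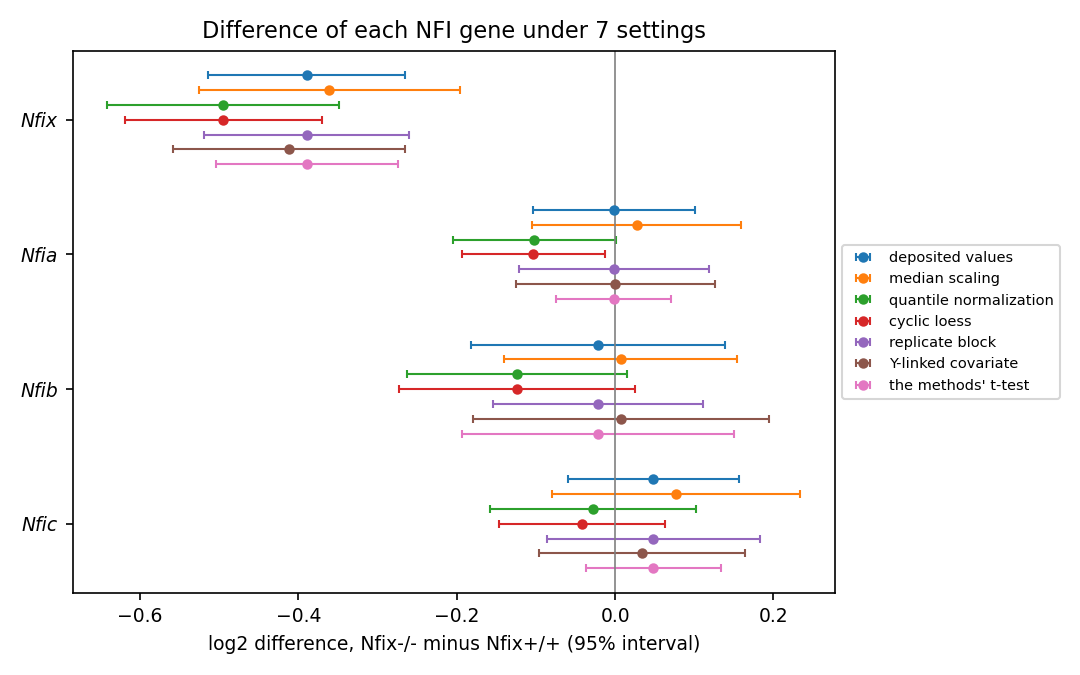
Log2 difference, Nfix-/- minus Nfix+/+ (horizontal axis), of each NFI gene with its 95% interval on the deposited values and under 6 alternatives. The interval of *Nfix* lies below 0 in all 7, and of the paralogs only that of *Nfia* after cyclic loess, -0.19 to -0.01, leaves out 0.

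All 4 genes gave a clear signal. Each exceeded, on 8 of 8 arrays, the signal that 95% of negative controls stayed under, which was 7.27 to 7.59. The *Nfix* cluster ranked between 2701 and 3251 among the 65956 clusters of an array in Nfix+/+, brighter than 95.1% to 95.9% of them. In Nfix-/- it ranked between 4164 and 4634, brighter than 93.0% to 93.7%, so the ranks of the genotypes did not overlap, as was also true of *Nfia*, at 4139 to 4221 in Nfix+/+ and 4331 to 4659 in Nfix-/-. *Nfia* was brighter than 93.6% to 93.7% of clusters in Nfix+/+ and 92.9% to 93.4% in Nfix-/-. *Nfib* was brighter than 93.6% to 94.5% and 92.9% to 93.6%, and *Nfic* than 88.8% to 90.2% and 89.1% to 89.7%. These ranks place the brightness of probe sets and not the amounts of the 4 transcripts, since probes differ in how strongly they bind.

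Among bright clusters the fall of *Nfix* was the 10th largest on the deposited scale. Of the 11778 clusters above background 1661 were higher at an adjusted p under 0.05 (14.1%) and 49 were lower (0.416%) on the deposited scale. This split depended on the scaling, with 299 higher and 165 lower after quantile normalization, 382 and 273 after cyclic loess and 1446 and 24 after median scaling. On the deposited scale *Nfix* was 1 of the 49, the 7th largest by size of the fall, and by p it was number 64 of the 11778. Over all 65956 clusters, most of them dim, it was number 2016 by p and number 3650 by size of the fall.

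**Figure D4:**
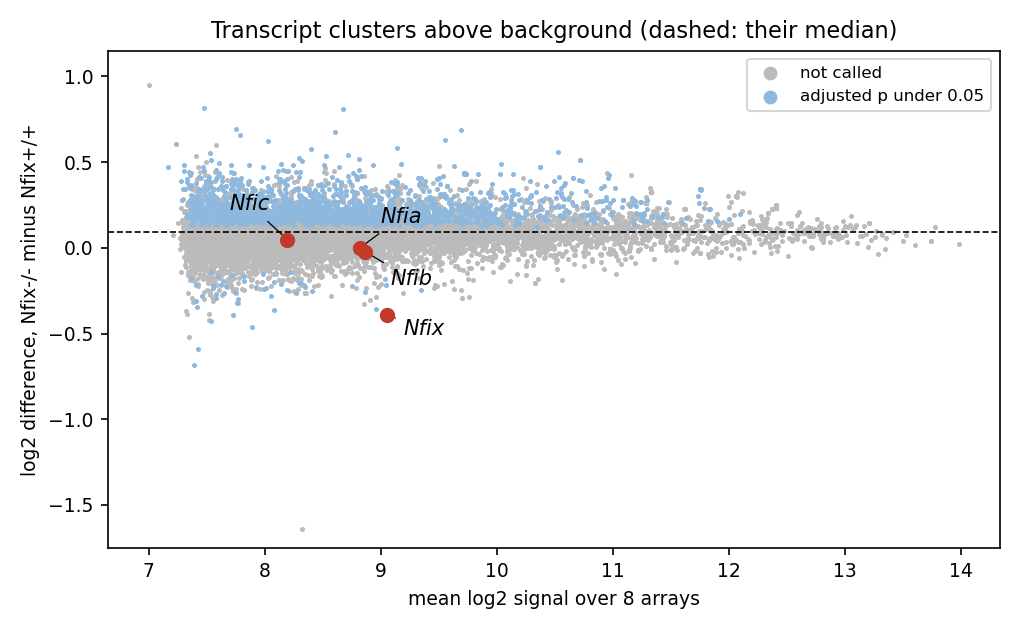
Mean log2 signal over 8 arrays (horizontal axis) against the log2 difference, Nfix-/- minus Nfix+/+ (vertical axis), for the 11778 clusters above background, with called clusters in blue, the 4 NFI genes in red and the median of 0.09 dashed. *Nfix* at -0.39 lies below nearly all clusters of its brightness, and *Nfia*, *Nfib* and *Nfic*, from -0.02 to 0.05, lie in the bulk.

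Genes placed around the family from the literature as remembered mostly did not pass the test. Of 9 genes reported as regulators or partners of NFI factors 1 rose, none fell and 8 did not pass, when 22.0% of all clusters were called, 11.5% as higher. Their median difference was 0.07, against 0.02 over all clusters and 0.09 over those above background. *Ski*, a co-repressor reported to bind NFI proteins, rose. Its log2 signals were 9.01, 9.02, 8.94 and 8.88 in Nfix-/- replicates 1 to 4 and 8.81, 8.68, 8.80 and 8.76 in Nfix+/+, and the groups did not overlap. The difference was 0.20 (standard error 0.0532, adjusted p = 0.0309 from limma), and it was 0.09 after quantile normalization (adjusted p = 0.364) and after cyclic loess (adjusted p = 0.272). The call was also lost when any array but Nfix-/- replicate 4 was left out, at adjusted p of 0.0510 to 0.0842 from limma.

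*Olig2*, a factor of motor neuron and oligodendrocyte progenitors reported to oppose NFIA on astrocyte genes, had signals of 8.22, 8.05, 8.11 and 7.95 in Nfix-/- and 8.51, 8.21, 8.38 and 8.25 in Nfix+/+. The groups overlapped narrowly and the difference was -0.25 (standard error 0.0832, adjusted p = 0.0626 from limma). It passed in 6 of 19 alternatives. Among these were quantile normalization at -0.34 (adjusted p = 0.0367 from limma) and cyclic loess at -0.34 (adjusted p = 0.0236). Without Nfix+/+ replicate 2 it also passed, at -0.29 (adjusted p = 0.0408). *Rbpj*, the DNA-binding factor of Notch signalling, was 8.66 to 8.77 in Nfix-/- and 8.53 to 8.65 in Nfix+/+. These groups did not overlap and the difference was 0.11 (adjusted p = 0.132 from limma), but 0.01 after quantile normalization and after cyclic loess. *Sox9*, which switches on *Nfia* in cord progenitors and then acts with its protein, was 8.93 to 9.08 and 8.77 to 8.94, a difference of 0.11 (adjusted p = 0.202 from limma) that was likewise 0.01 after either scaling.

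Of 16 genes reported as activated by an NFI factor in glia, cerebellar neurons or fetal muscle, 1 rose, none fell and 15 did not pass, beside the 11.5% of all clusters called as higher, with a median difference of 0.05. *Zcchc24*, reported as a joint target of SOX9 and NFIA in astrocyte precursors, had signals of 8.11, 8.05, 8.08 and 7.95 in Nfix-/- replicates 1 to 4 and 7.86, 7.77, 7.87 and 7.84 in Nfix+/+. Every Nfix-/- value was above every Nfix+/+ value. It rose by 0.21 (standard error 0.0515, adjusted p = 0.0209 from limma), but was at 0.14 after quantile normalization (adjusted p = 0.175) and 0.13 after cyclic loess (adjusted p = 0.114). It also missed the threshold without Nfix-/- replicate 1, 2 or 3 or without Nfix+/+ replicate 4, at adjusted p of 0.0524 to 0.0568 from limma. *Efnb1*, an ephrin reported as an NFI target in cerebellar granule neurons, was 8.36 to 8.60 in Nfix-/- and 8.06 to 8.32 in Nfix+/+, without overlap, a difference of 0.24 (adjusted p = 0.0521 from limma). It passed in 5 of 19 alternatives, among them without Nfix-/- replicate 4, at 0.29 (adjusted p = 0.0386 from limma). It did not pass without Nfix+/+ replicate 2, at 0.18 (adjusted p = 0.0746), after quantile normalization, at 0.16 (adjusted p = 0.264), or after cyclic loess, at 0.15 (adjusted p = 0.211). *Gabra6*, a GABA receptor subunit of the same neurons, was above background on 0 arrays, at 2.97 to 3.13 and 3.13 to 3.30, a difference of -0.16 (adjusted p = 0.0742 from limma). This gene passed in 3 of 18 alternatives, among them without Nfix+/+ replicate 2 at -0.19 (adjusted p = 0.0473 from limma).

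Of 6 genes reported as repressed by an NFI factor, none passed limma in either direction, when 22.0% of all clusters did. The methods' t-test called 1, *Bbx*. At an unadjusted p under 0.05 limma also gave none of the 6, against 24217 of all 65956 clusters. *Bbx*, an HMG box factor reported as repressed by NFIX in progenitors, was 6.88 to 6.95 in Nfix-/- and 6.78 to 6.86 in Nfix+/+, without overlap, a difference of 0.09 (adjusted p = 0.154 from limma) that was 0.06 after quantile normalization and 0.04 after cyclic loess. *Myh7*, the slow muscle myosin, was 5.64 to 5.95 and 5.46 to 5.86, a difference of 0.10 (adjusted p = 0.496 from limma). Both *Bbx* and *Myh7* were above background on 0 arrays. *Sox9* is also on this list because NFIX was reported to repress it in the forebrain. Of the 3 lists 7 of 9, 9 of 16 and 2 of 6 genes were above background on at least 4 arrays, so the list of repressed genes was read mostly from dim clusters.

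**Figure D5:**
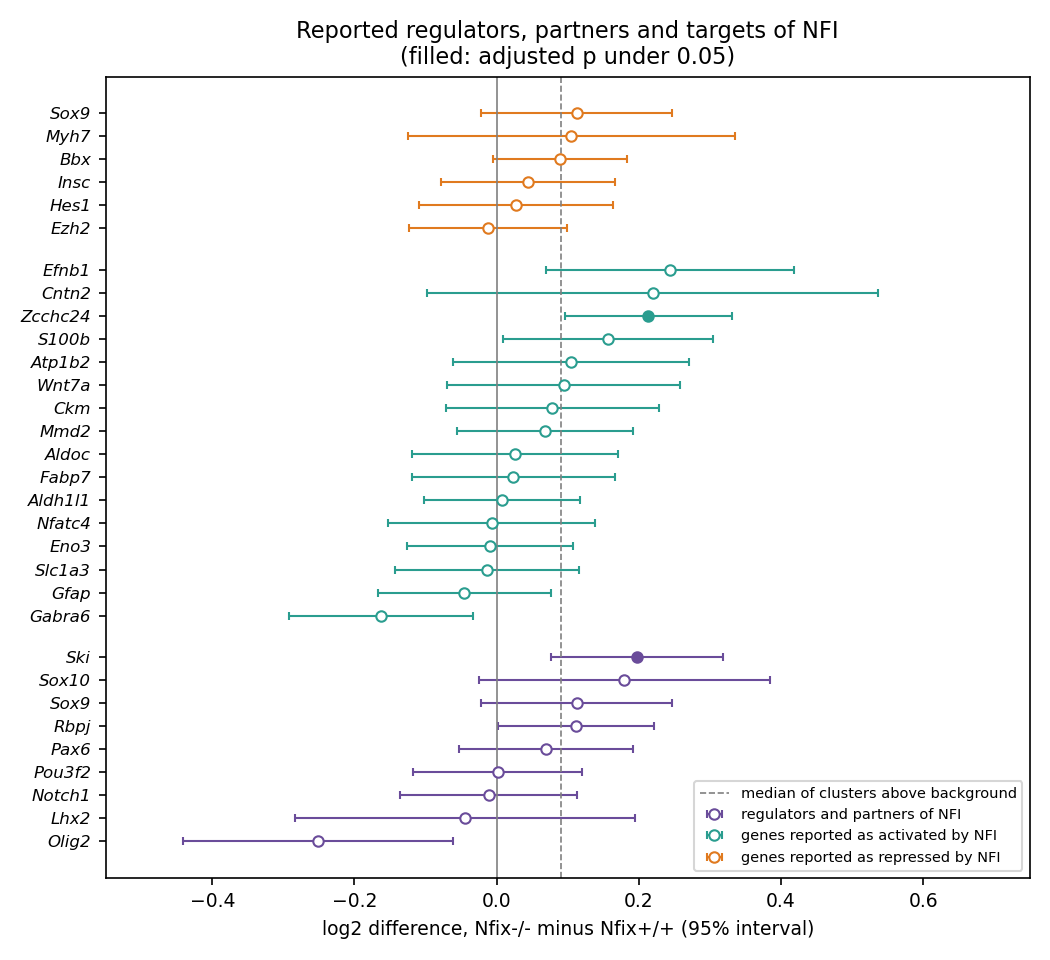
Log2 difference, Nfix-/- minus Nfix+/+ (horizontal axis), with 95% intervals for the genes of the 3 lists, filled where the adjusted p was under 0.05 and with the median of 0.09 over clusters above background dashed. *Ski* at 0.20 and *Zcchc24* at 0.21 are the filled points, and most others lie between -0.05 and 0.12.

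The genes whose values ran most like those of each member over the 8 arrays were taken from the named genes above background, as a description without a test, since the highest of 8835 correlations over 8 arrays is high by selection. For *Nfix* they were *Scoc*, a short coiled-coil protein gene (Pearson's r = 0.971, Spearman's rho = 0.786), the ephrin gene *Efnb3* (r = 0.968, rho = 0.929) and the junctophilin gene *Jph4* (r = 0.968, rho = 0.976). Their genotype differences of -0.28, -0.26 and -0.16 are part of that likeness and are given without a test. *Scoc* lies on the chromosome of *Nfix*, and its signals were 7.29, 7.33, 7.30 and 7.34 in Nfix-/- and 7.65, 7.52, 7.63 and 7.59 in Nfix+/+. *Efnb3*, known as a midline barrier to growing axons in the cord, was 8.06 to 8.19 against 8.36 to 8.43, and *Jph4* was 7.59 to 7.68 against 7.75 to 7.85.

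Once the mean of each genotype was subtracted, different genes ran with *Nfix*. They were *Psd*, an exchange factor for ARF6 (r = 0.981), *Gm13509* (r = 0.974) and the intraflagellar transport gene *Ift57* (r = 0.970), over 8 deviations from 2 means. For *Nfia* the 3 highest over the 8 arrays were the zinc finger gene *Zfp729b* (r = 0.944), *Mon2* (r = 0.906) and the chromatin remodeller *Ep400* (r = 0.899). After the genotype means were subtracted they were the lipid kinase *Pikfyve* (r = 0.976), *Mia3* (r = 0.961) and *Trim23* (r = 0.953). *Nfia* had 0 genes with r over 0.95 in the former measure, and its wild-type values were so close to each other that its order rests on the Nfix-/- arrays.

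For *Nfib* they were *Nfat5*, a factor of the osmotic stress response (r = 0.977), *Sppl2a* (r = 0.969) and *Fam120c* (r = 0.961), and after subtraction *Mib1*, a ubiquitin ligase of Notch ligands (r = 0.990), *Hnrnpul2* (r = 0.982) and the microtubule gene *Clasp2* (r = 0.982). For *Nfic* they were *Gm10644* (r = 0.984), the splicing factor *Hnrnpf* (r = 0.983) and *Ttc9b* (r = 0.980), and after subtraction *Ecd* (r = 0.983), *Hnrnpf* again (r = 0.980) and *Zbtb39* (r = 0.979). The number of genes with r over 0.95 after subtraction was 7 for *Nfix*, 4 for *Nfia*, 67 for *Nfib* and 36 for *Nfic*.

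Some annotated genes lie within the spans of the NFI genes, and the strand of their probes was not analysed here. The long non-coding RNA *G430095P16Rik* lies inside *Nfix*, from 84723057 to 84726846, and was above background on 0 arrays. It was 6.74 to 6.98 in Nfix-/- and 6.89 to 7.08 in Nfix+/+, a difference of -0.11 (adjusted p = 0.274 from limma). *Lyl1* overlaps the far end of *Nfix* by 5 bases and differed by -0.08 (adjusted p = 0.653 from limma). *E130114P18Rik* overlaps *Nfia* and differed by -0.03 (adjusted p = 0.753), *2310067E19Rik* lies in *Nfib* and differed by 0.21 (adjusted p = 0.633) and *Gm16104* lies in *Nfic* and differed by -0.11 (adjusted p = 0.298), all from limma and all in clusters above background on 0 arrays.

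The cords carried the markers of their tissue, and 5 markers of fibroblasts and endothelium passed the test between genotypes. Only *Foxc1* and *Cdh5* of these were above background on at least 4 arrays. Over all clusters 22.0% were called, 11.5% as higher, and of those above background 14.1% were called as higher. The 4 pan-neural genes and the 3 measured *Hox* genes of the cord were above background on all 8 arrays, and 3 measured forebrain genes on none. Of 6 genes of meninges and fibroblasts, 3 rose (*Foxc1*, *Lum* and *Prrx1*, of which *Prrx1* was above background on 0 arrays and *Lum* on 2) and none fell, and the list's mean log2 signal was 7.69 to 7.82 in Nfix-/- and 7.50 to 7.63 in Nfix+/+. Of 5 endothelial genes *Cdh5* and *Emcn* rose, of which *Emcn* was above background on 0 arrays. This list's mean was 7.92 to 8.07 in Nfix-/- and 7.75 to 7.90 in Nfix+/+. The median difference was 0.20 for the former list and 0.09 for the latter, beside 0.09 over all clusters above background. None passed of 3 measured genes of sensory ganglia (8.23 to 8.39 and 7.56 to 8.34, lowest in Nfix+/+ replicate 2), 6 of skeletal muscle (6.46 to 7.05 and 6.25 to 6.83), 4 of microglia (6.31 to 6.39 and 6.24 to 6.41), 5 of cartilage (6.26 to 6.42 and 6.25 to 6.41) and 1 measured red cell gene. The 3 ganglion genes, all above background on at least 4 arrays, had a median difference of 0.37, the largest of the marker lists. *Avil* differed by 0.37 (adjusted p = 0.0665 from limma), *P2rx3* by 0.38 (adjusted p = 0.0780) and *Prdm12* by 0.30 (adjusted p = 0.281), and the groups overlapped in each. *Myod1*, *Myog*, *Ckm* and *Tnnt3* of muscle and all 4 microglial genes were above background on 0 arrays. The embryonic myosin gene *Myh3* was above background on 2, at 8.14 in Nfix-/- replicate 1 and 7.71 in Nfix+/+ replicate 3, against 6.74 to 7.24 and 5.96 to 6.12 in the remaining arrays (difference 0.81, adjusted p = 0.217 from limma). *Actn2* was above background on 1, at 7.59 in Nfix-/- replicate 1 (difference 0.38, adjusted p = 0.210 from limma). The part of the 5 called markers in the values of the NFI genes was not tested, and their values after another scaling are not given here.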

How the data were processed

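Log2 values of 8 Affymetrix Mouse Transcriptome Arrays were used, 4 per genotype. The authors made the deposited log2 values with SST-RMA, run on gene level in Affymetrix software, a method that subtracts background, normalises the probes between arrays and reduces each probe group to 1 value. Their own comparison was unpaired, on mm10, with a false discovery rate and a cut-off of 1.5-fold. Of 72688 rows, 6732 control probe sets were left out, and 30638 of the 65956 clusters carried 1 gene symbol. Names were updated to the table of GRCm38.p6 through Entrez identifiers.

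Genotypes were compared with limma 3.58.1 in R 4.3.3 (lmFit, eBayes) over all clusters with Benjamini-Hochberg adjustment at 0.05, and 95% intervals are those of limma. The script was tested on simulated data. Exact permutation tests used scipy 1.17.1. The members and gene lists were chosen with earlier results of these data known. The lists of regulators, partners and targets of NFI were drawn from the literature as remembered. Named list genes were those called and the 3 of lowest p in each list, and for each member the 3 genes most like it. Genes that overlap or neighbour a member were added after the files were seen. The precision is limited by 4 arrays a group, and since nothing says whether cords were pooled, p-values measure the spread between these samples. Alternatives covered scaling, test, prior, array weights, filters, a replicate block, a Y-linked covariate and each array left out. Each member had 1 cluster, so no average over clusters was made. No list of calls made by the authors was used.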

Additional observations from a re-analysis of the deposited data

Results flagged for a closer look

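In 4 groups of values 1 array lay well away from the remaining 3 arrays of that genotype. Chance alone does this in roughly 1 of 20 groups, and 78 were examined. *Myh7* was 5.95 in Nfix-/- replicate 1, against 5.64 to 5.68 in the others. *Fam120c*, which ran with *Nfib*, was 7.75 in Nfix+/+ replicate 2, against 7.44 to 7.48. *Zbtb39*, which ran with *Nfic*, was 7.74 in Nfix-/- replicate 4, against 7.84 to 7.85, and 7.70 in Nfix+/+ replicate 2, against 7.93 to 7.98. None of the 4 NFI genes was so far apart on any array.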

How the results depend on the processing

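*Nfix* was lower past the threshold in all 19 alternatives run, from -0.50 to -0.36 over settings and from -0.41 to -0.35 with 1 array left out (adjusted p at most 0.0137 from limma). *Nfia*, *Nfib* and *Nfic* passed in none of 19, with ranges of -0.10 to 0.03, -0.12 to 0.01 and -0.04 to 0.08 over settings and of -0.02 to 0.02, -0.05 to 0.03 and 0.02 to 0.07 with 1 array left out. *Nfix* minus *Nfia* ran from -0.42 to -0.35, *Nfix* minus *Nfic* from -0.47 to -0.42 and *Nfix* minus *Nfib* from -0.44 to -0.30 with 1 array left out, where no p can pass. After quantile normalization and cyclic loess they were -0.39 and -0.39, -0.47 and -0.45, and -0.37 and -0.37, with the calls as before. Median scaling cancels within an array.

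The count of 14520 called clusters, 1710 of them above background, was 2500 in a separate fit of only clusters above background and 8357 in one of only named clusters. At both thresholds 1351 became 11 and 371 in these fits. They kept only 11778 and 30638 of the 65956 clusters, and the log2 difference of a kept cluster was unchanged. The methods' t-test over all clusters gave 1284 (13215 without the fold cut-off, 23505 unadjusted). Leaving out 1 array gave 9858 to 15080 and 1280 to 1536. Regulators and partners called went from 1 to 0 after median scaling and with the Y-linked covariate and to 2 with array weights or only named clusters (0 to 1 with 1 array left out). After quantile normalization, cyclic loess and with the block the 1 called was lower, not higher. Genes reported as activated went from 1 to 0 after quantile normalization, cyclic loess and with the Y-linked covariate, to 2 with a trended prior or only clusters above background and to 3 with array weights or only named clusters, 1 of them lower (0 to 2 with 1 array left out). Genes reported as repressed went from 0 to 1 with the methods' t-test (0 to 0 with 1 array left out).

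Whether same-numbered samples belong together, for example by litter, is not given. Deviations of same-numbered arrays from their genotype's mean correlated at 0.292, -0.519, 0.0161 and -0.112. The highest correlation, 0.732, was between Nfix-/- replicate 4 and Nfix+/+ replicate 2. Such correlations take in every difference between arrays and cannot decide whether the replicate numbers pair the samples. With the replicate block *Nfix* was -0.39 (adjusted p = 0.0137), *Nfia* -0.00, *Nfib* -0.02 and *Nfic* 0.05, and 11235 clusters were called, 1330 of them with the fold cut-off.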

Other observations

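Of the nearest measured protein-coding neighbours of the NFI genes, looked at after the files were seen, those of *Nfix* were *Trmt1* (log2 difference 0.04, adjusted p = 0.592 from limma) and *Dand5* (0.08, adjusted p = 0.226). *Tm2d1*, 236494 bases from *Nfia*, was the only called gene of the 8 neighbours, when 22.0% of all clusters were called. It was at 6.87 to 6.95 in Nfix-/- and 6.61 to 6.79 in Nfix+/+. This is a rise of 0.23 (adjusted p = 0.0157 from limma), in a cluster above background on 0 arrays. The microRNA gene *Mir1191b*, inside *Nfic*, was 4.18 to 4.54 in Nfix-/- and 3.76 to 3.93 in Nfix+/+, a rise of 0.45 (adjusted p = 0.00687) with all 8 values below the negative-control median of their array.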
